A study of Mus musculus with 6 samples.

Results

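The transcripts of Myc and of 39 ribosome biogenesis genes were followed in the progeny of naive CD4 T cells (CD4N cells) that lacked or carried Foxo1. The 40 genes were found by matching a list of gene symbols to the deposited table of normalized expression, where all 40 were among its 13564 gene rows. The list was set by gene function and not by the size of any change, although earlier results of these data were known when it was drawn up. CD4N cells were flow cytometry sorted from lymph nodes of C57BL/6J mice and activated in vitro for 4 days with 0.1 µg per ml of the anti-CD3 antibody 145-2C11, at 50000 T cells with 250000 splenocytes of CD3eKO mice, whose spleens lack T cells, as antigen presenting cells. Foxo1TKO mice carry floxed Foxo1 alleles and a CD4-Cre transgene, which deletes the gene in the CD4 and the CD8 lineage from the thymocyte stage at which both co-receptors are present, so that the gene was lost before activation. Foxo1Ctrl mice carry the same floxed alleles without Cre. There were 3 RNA-seq libraries of each genotype, all at a single time point and dose, and neither an unstimulated sample nor a sample from before activation was analysed here. The study's methods give a larger number of T cells per culture than the labels and add mesenteric nodes to the peripheral ones, and the sources used here do not say if splenocytes had been removed by the time of RNA extraction. Nor do they say that the 3 libraries of a genotype came from separate mice, so p-values measure the spread between these libraries, which may be partly technical.

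Myc encodes a transcription factor that T cells induce after antigen receptor signals and that, as a dimer with Max, binds the E-box CACGTG. Its best known targets include the machinery that makes ribosomes: RNA polymerase I transcribes ribosomal RNA in the nucleolus, small nucleolar ribonucleoproteins (snoRNPs) of the box C/D and box H/ACA classes methylate and pseudouridylate it, and long series of assembly factors mature the small and large subunits. The output of this machinery limits how fast an activated T cell can grow before it divides.

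The promoters of the genes were searched for letters that Myc and Foxo proteins are known to bind, because Myc is among the transcripts measured and Foxo1 is the factor deleted. Promoter sequences (250 bases before to 50 after each start, RefSeq, GRCm38.p6) were matched for 33 of the 40 genes. The others, Bop1, Fbl, Myc, Npm1, Rrp12, Rrs1 and Tcof1, are named only. On either strand, CACGTG was found in 7 of the 33 promoters (21.2%), against 8.09% of the 27025 genes with a promoter sequence. The 7 matches are shown 5′ to 3′ on the strand of the gene with the E-box in capitals, and the position given counts from the first transcribed base as 1.
Grwd1 (chr7:45830740-45830767, minus strand, position 35): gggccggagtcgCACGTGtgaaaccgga
Mybbp1a (chr11:72441355-72441376, plus strand, position 41): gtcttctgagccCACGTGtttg
Nop2 (chr6:125131811-125131840, plus strand, position -60): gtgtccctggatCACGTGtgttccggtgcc
Pes1 (chr11:3963965-3963994, plus strand, position 3): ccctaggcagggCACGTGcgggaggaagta
Utp20 (chr10:88826765-88826789, minus strand, position 38): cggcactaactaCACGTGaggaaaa
Utp4 (chr8:106893643-106893672, plus strand, position 16): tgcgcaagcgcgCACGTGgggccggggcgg
Wdr43 (chr17:71616220-71616249, plus strand, position 18): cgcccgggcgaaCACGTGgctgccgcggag

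Of these, Grwd1, Mybbp1a, Pes1, Utp20 and Wdr43 belonged to the transcripts that rose, while Nop2 and Utp4 did not pass the test. The variant E-box CACGCG, which reads CGCGTG on the other strand, was found in 11 of the 33 promoters (33.3%), against 10.5% of all genes and 19.9% of the genes tested that have a promoter sequence. Mybbp1a and Pes1 held both motifs. The variant lay within 50 bases of the start in 8 of the 11, and all 8 are shown. Of these, Ddx21, Nhp2, Noc2l, Nolc1 and Nop16 rose, and Ddx10, Nip7 and Utp15 did not pass the test.
Ddx10 (chr9:53248098-53248127, minus strand, position -3): ttcccggacttgCGCGTGcgcccctgcgcc
Ddx21 (chr10:62602249-62602272, minus strand, position 39): cctctctcctagCACGCGgttgag
Nhp2 (chr11:51619764-51619793, plus strand, position 4): ggaggcggcggcCGCGTGgttcctctatgc
Nip7 (chr8:107056824-107056853, plus strand, position -41): aggctagagagaCACGCGttcgtggacccc
Noc2l (chr4:156236015-156236044, plus strand, position 18): ggaagtgcggcgCACGCGgctgggcgcgcc
Nolc1 (chr19:46075810-46075839, plus strand, position -25): gcaggatgatgaCGCGTGtgggaccggaag
Nop16 (chr13:54590029-54590058, minus strand, position 29): ggagactattaaCACGCGgctctgagagcg
Utp15 (chr13:98262967-98262996, minus strand, position 9): tcctggactgtcCGCGTGattttgagcgag

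The Foxo consensus GTAAACA, or TGTTTAC on the other strand, was in 0 of the 33 promoters and in 4.05% of all genes, which says only that these letters are not in these windows. Over the 33 genes, the median log2 fold change was 0.98 for the 7 with CACGTG and 1.02 for the 26 without it. Over all genes tested with a promoter sequence, of which 11.9% held CACGTG, it was 0.10 with and 0.03 without the motif. For CACGCG the medians were 0.98 for the 11 genes with the variant and 1.02 for the 22 without it, and 0.12 and 0.01 over all genes tested. The further ribosome biogenesis genes described below were split in the same way. Their median was 0.76 for the 23 with CACGTG and 0.49 for the 79 without it. Of these, 60.9% and 34.2% rose, against 15.5% and 12.9% of all genes tested. For CACGCG it was 0.50 for the 34 with the variant and 0.62 for the 68 without it, of which 44.1% and 38.2% rose. These differences were not tested. A match is a description of the sequence and not a site of binding.

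The genotype labels were checked against the level of Foxo1. Foxo1 (ENSMUSG00000044167, GRCm38 chr3:52268336-52353221, plus strand), the gene that was deleted, had 85.4, 46.5 and 115 normalized counts in the 3 Foxo1TKO libraries and 1529, 2285 and 1598 in the 3 Foxo1Ctrl libraries, and its log2 fold change was -4.45 (SE 0.36, adjusted p = 0.00020). A normalized count is the library's RSEM expected count after scaling to a common library size. Each log2 fold change here is Foxo1TKO minus Foxo1Ctrl, and each adjusted p comes from edgeR's quasi-likelihood test over all 13691 genes that passed a filter on low counts, with Benjamini-Hochberg adjustment. Library totals were between 14783890 and 19675447 expected counts. All 9 T cell marker transcripts listed passed the filter, and their summed level was 162492 to 181846 normalized counts in Foxo1TKO libraries and 190737 to 229611 in Foxo1Ctrl libraries, with 1 of them, the co-stimulatory receptor Cd28, lower (log2 fold change -1.43, adjusted p = 0.0012). The 8 B cell markers that passed the filter, of 9 listed, summed to 162 to 217 normalized counts in Foxo1TKO libraries and 551 to 623 in Foxo1Ctrl libraries, and 4 of them, Cd79a, Cd79b, Ms4a1 and Cd22, were lower. Of 4 plasma cell markers the 2 that passed the filter, Jchain and Mzb1, were lower, with sums of 346 to 948 against 1654 to 2506. Of 3 natural killer cell markers tested Klrd1 was lower, with a mean of 805 against 4153 normalized counts. It made up most of their sums of 771 to 1632 against 3818 to 5609. Klrb1c (mean 31.6 against 51.3) and Gzma (426 against 523) overlapped between the genotypes and did not pass the test. Of 8 macrophage and monocyte markers only Cd68 passed the filter, at 60.0, 64.9 and 83.7 against 44.1, 44.6 and 34.9 normalized counts, with no overlap and every Foxo1TKO library above (log2 fold change 0.74, adjusted p = 0.099). The others reached at most 17 counts in any library (Mrc1), and C1qa was at 0 in every library. Of 6 dendritic cell markers, Zbtb46 had 129, 135 and 119 against 213, 112 and 210.3 and Xcr1 67.6, 56.2 and 18.2 against 22.7, 30.9 and 50.4 normalized counts, neither of which passed the test. The others reached at most 5 counts in any library (Flt3 and Siglech), and Cd209a was at 0. No neutrophil marker exceeded 17 counts in any library. The part of other cells in the results was not tested.

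Ribosome biogenesis transcripts as a group were higher in Foxo1TKO progeny. All 40 genes passed the filter on low counts, and at an adjusted p under 0.05 26 of them rose, 1 fell and 13 did not pass the test. Over all genes tested, 24.2% passed the test, 11.8% as higher and 12.4% as lower. With library totals in place of TMM scaling, 59.4% of all calls were higher, against 48.8%, and 29 of the 40 genes rose. Leaving out Foxo1TKO library 2 lowered the number of the 40 genes that rose to 17, and the other libraries gave 19 to 27. Calls over all genes fell as well without Foxo1TKO library 2, to 1590 of 13236 tested, 41.3% of them higher. With all libraries 3308 of 13691 were called. With a fold change over 1.5 required as well, 25 genes rose and 1 fell, against 11.1% and 11.8% of all genes, and the gene that dropped out was Wdr43. The median log2 fold change was 1.02 over the 40 genes and 0.01 over all genes tested, and 36 of the 40 values were positive. In 32 genes every Foxo1TKO library lay above every Foxo1Ctrl library, and in 1 gene, Wdr12, every one lay below; these patterns were met by 21.5% and 21.2% of all genes tested. Without Myc itself, 25 of the 39 genes rose and 1 fell. The plot of fold changes by role shows that most of the genes lie well above 0 and that Wdr12 is the only gene past the threshold below 0.

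**Figure D1:**
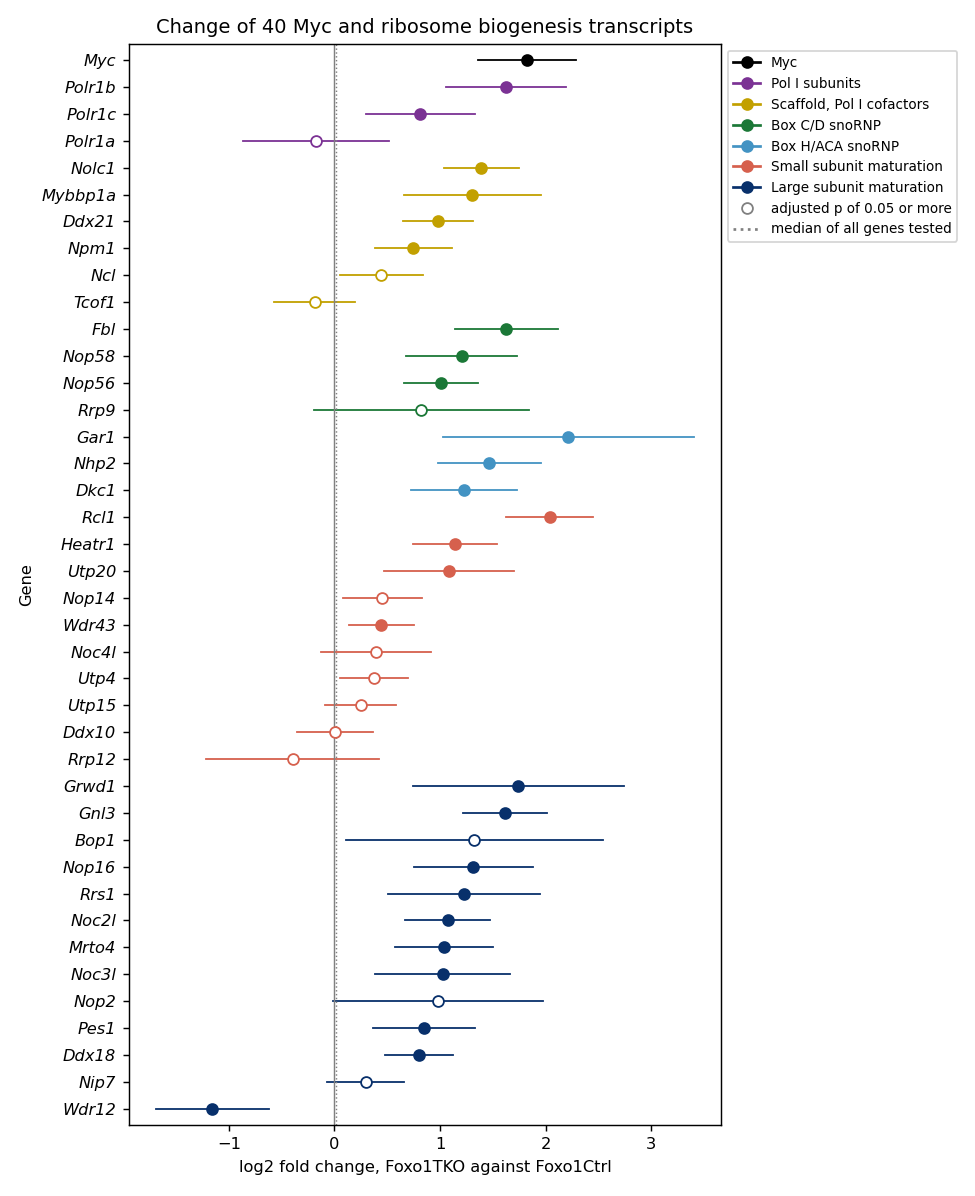
Log2 fold change, Foxo1TKO against Foxo1Ctrl, of the 40 genes in 7 role groups (colours), with points for the edgeR estimates and lines for 95% confidence intervals. Filled points have an adjusted p under 0.05; 26 of them lie above 0 and 1, Wdr12, lies below, while the median of all genes tested (dotted line) is 0.01.

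Summed over the 40 genes, the 3 Foxo1TKO libraries held 91035 to 93782 normalized counts and the 3 Foxo1Ctrl libraries 50030 to 58702. As a share of all counts of a library this was 0.514% to 0.574% against 0.284% to 0.301%. The groups did not overlap, and a two-sided exact permutation test of 3 against 3 libraries cannot go below p = 0.1. On the TPM scale of the deposited files (abundance per transcript), which divides by transcript length and so allows levels of different genes to be compared, the sum was 3618 to 4235 in Foxo1TKO and 2013 to 2156 in Foxo1Ctrl libraries. These values are relative to all transcripts of a library. In such bulk samples more RNA per cell and a different mix of cells cannot be told apart.

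The levels of the genes spanned a wide range. Npm1, a histone and ribosomal protein chaperone of the nucleolus, had the highest mean level at 882 TPM in Foxo1TKO and 496 TPM in Foxo1Ctrl libraries, followed over all libraries by Nop56, Ncl, Nop58, Dkc1 and Nhp2. At the other end, Rrp12 had 1.40 and 1.78 TPM. Myc ranked 9 of 40 over all libraries. The map of the levels by library shows the step between genotypes in most rows, the reversed row of Wdr12, and rows such as Bop1, Grwd1, Rrp9 and Nop2 in which Foxo1Ctrl library 2 stood far below the other Foxo1Ctrl libraries.

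**Figure D2:**
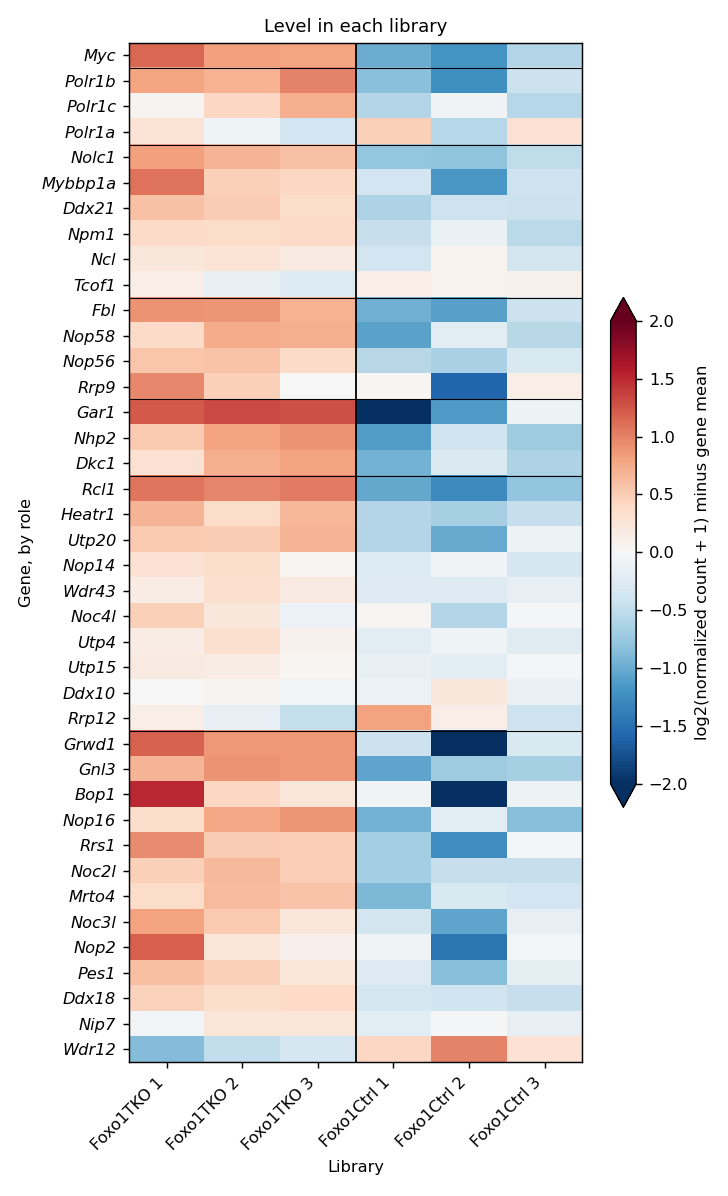
Level of the 40 genes (rows, grouped by role as in the list of fold changes) in the 3 Foxo1TKO and the 3 Foxo1Ctrl libraries (columns), as log2(normalized count + 1) minus the gene's mean over the 6 libraries. Red is above and blue below the mean, colours are capped at 2 in either direction, and in 32 rows all Foxo1TKO libraries are above all Foxo1Ctrl libraries.

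Myc (ENSMUSG00000022346, GRCm38 chr15:61985391-61990374, plus strand) was among the genes with the clearest change. It had 6510.3, 5225 and 5121 normalized counts in the Foxo1TKO libraries and 1492, 1291 and 1973 in the Foxo1Ctrl libraries. Every Foxo1TKO library was far above every Foxo1Ctrl library, with means of 5619 ± 774 and 1585 ± 350.3 (SD, n = 3 each), and the level was 3.54-fold higher (log2 fold change 1.82, SE 0.20, adjusted p = 0.00076). On the TPM scale the means were 195 and 54.1. The call held under every alternative setting and with each library left out, with log2 fold changes from 1.70 to 2.00.

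Few partners and antagonists of Myc passed the test. Of 14 genes of the network listed, 11 passed the filter, 0 rose and 2 (18.2%, against 12.4% of all genes tested) fell by edgeR, with a median log2 fold change of 0.16, and 0 rose at an unadjusted p under 0.05, by DESeq2 or by limma-voom. Max, the obligate partner of Myc, had 1636, 1403 and 1048 normalized counts in Foxo1TKO and 1213, 1451 and 1243 in Foxo1Ctrl libraries (log2 fold change 0.07, 95% interval -0.38 to 0.51, adjusted p = 0.84). The transcripts that fell were Mxi1 and Mxd1, which encode repressors that compete with Myc for Max. Mxi1 (ENSMUSG00000025025, GRCm38 chr19:53310518-53375810, plus strand) had 226, 359 and 298 normalized counts in Foxo1TKO libraries and 737, 1085 and 843 in Foxo1Ctrl libraries, with no overlap (log2 fold change -1.59, SE 0.24, adjusted p = 0.0027). Mxd1 (ENSMUSG00000001156, GRCm38 chr6:86647042-86669161, minus strand) had 949, 843 and 698 against 1517, 1033 and 1872 normalized counts (log2 fold change -0.83, SE 0.24, adjusted p = 0.039), again without overlap. The other paralogues of the antagonists, Mxd3, Mxd4 and Mnt, did not pass the test, with log2 fold changes of 0.60, 0.39 and 0.24. Mxd4 lay the other way from Mxi1 and Mxd1, also without overlap. It had 685, 756 and 703 normalized counts in Foxo1TKO and 457, 582 and 598 in Foxo1Ctrl libraries (adjusted p = 0.14). Mycn, Mycl and Mlxipl reached at most 2, 4 and 5 counts in any library and were not tested.

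The change of Myc and that of Mxi1 add up in the ratio of both. The ratio of their TPM values was 48.9, 27.0 and 38.6 in the Foxo1TKO libraries and 4.19, 2.87 and 4.97 in the Foxo1Ctrl libraries, without overlap. In TPM every Foxo1TKO library was above every Foxo1Ctrl library for Myc and below for Mxi1, so the ratio could not overlap. It was formed after the values of both genes had been seen and was not tested. The promoter window of Mxi1 at 1 of its starts holds the Foxo consensus, as do windows of 4.05% of all genes with a promoter sequence. No match is recorded for Mxd1, which fell as well, and the remaining partners and antagonists of Myc are not described in this way. Binding of Foxo1 at Mxi1 was not tested. The study drew up a list of genes with Foxo1 at the promoter from public data, which was not used here. The match in Mxi1 is shown with the motif in capitals.
Mxi1 (chr19:53329453-53329481, plus strand, position -231): cgcgcggagaaGTAAACAaaccgcgcgcg

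**Figure D3:**
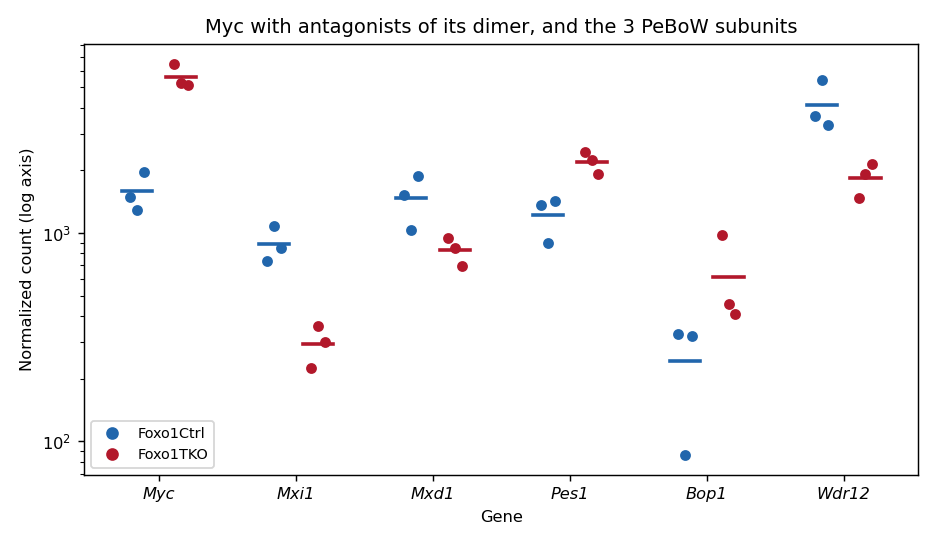
Normalized counts (log axis) of Myc, of Mxi1 and Mxd1, and of the PeBoW subunits Pes1, Bop1 and Wdr12 in the 3 Foxo1Ctrl (blue) and the 3 Foxo1TKO (red) libraries, with points for libraries and lines for means. Myc, Pes1 and Bop1 are higher in all Foxo1TKO libraries, whereas Mxi1, Mxd1 and Wdr12 are lower in all of them.

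Genes that are well known as Myc targets outside ribosome biogenesis were examined as a further list of 20. This list and the proliferation list below were drawn up with earlier results known. Of the 20 genes, 16 rose (80%, against 11.8% of all genes tested) and 4 did not pass the test. By limma-voom 15 rose. The median log2 fold change was 1.02 and no value was below 0. The largest changes were in Srm, the spermidine synthase (833, 939 and 881 against 75.1, 154 and 355 normalized counts, log2 fold change 2.17, adjusted p = 0.015), Rcc1, the exchange factor of the Ran GTPase (log2 fold change 1.68, adjusted p = 0.043), and Cdk4, the cyclin D kinase of the G1 phase (6297, 5602 and 5943 against 1992, 1872 and 2441, 2.83-fold higher, adjusted p = 0.00058). For Rcc1 the libraries overlapped, with 325, 199 and 81.6 normalized counts in Foxo1TKO and 60.8, 43.5 and 83.3 in Foxo1Ctrl libraries. Of the 16 proliferation transcripts listed 6 rose (37.5%, against 11.8% of all genes tested). Among them were Mcm5 (log2 fold change 1.49) and Mcm6 (1.12) of the replicative helicase. The other 10 did not pass the test, of which Mki67 stood at -0.12 (adjusted p = 0.80). The summed level of all 16 was 24534 to 31438 normalized counts in Foxo1TKO and 15573 to 19362 in Foxo1Ctrl libraries. These transcripts do not count divisions. The study followed division by dilution of a dye in cultures of this design. It reported that T cells without Foxo1 proliferated markedly less, the other direction from the summed transcripts. The part of dividing cells in the changes of the ribosome biogenesis genes was not tested.

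RNA polymerase I transcribes the large ribosomal RNA precursor, and 2 of its 3 listed subunits rose. Polr1b, which encodes the second largest subunit, had 422, 393 and 486 normalized counts in Foxo1TKO libraries and 136, 103 and 180.2 in Foxo1Ctrl libraries (log2 fold change 1.62, SE 0.25, adjusted p = 0.0030). Polr1c, a subunit shared with RNA polymerase III, was the most abundant of the group at 160.1 and 92.4 TPM and had 1959, 2518 and 3121 against 1256, 1799 and 1271 normalized counts. Its Foxo1TKO libraries all lay above its Foxo1Ctrl libraries, the nearest being 1959 and 1799 (log2 fold change 0.81, SE 0.22, adjusted p = 0.034). Polr1a, the largest subunit, which forms the active site with Polr1b, had 510.5, 397 and 324 against 587, 284 and 521 normalized counts, so that the groups overlapped (log2 fold change -0.17, 95% interval -0.87 to 0.52). The call of Polr1c was lost with an offset for GC content (log2 fold change 0.71, adjusted p = 0.13), with limma on the deposited normalized table (adjusted p = 0.052) and without Foxo1TKO library 2 or 3 or Foxo1Ctrl library 1 or 3.

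Among nucleolar scaffold proteins and cofactors of RNA polymerase I, 4 of 6 rose. Nolc1, a chaperone of snoRNPs that travels between nucleolus and cytoplasm, changed most. It had 2592, 2343 and 2200.0 normalized counts in Foxo1TKO libraries and 856, 835 and 1029 in Foxo1Ctrl libraries, a wide gap (log2 fold change 1.39, SE 0.15, adjusted p = 0.00079). Npm1 had 15212, 15092 and 15151 normalized counts in Foxo1TKO libraries, which were nearly equal, and 8433, 10687 and 7995 in Foxo1Ctrl libraries (log2 fold change 0.75, SE 0.16, adjusted p = 0.012). Mybbp1a, a Myb-binding protein of the nucleolus, and the RNA helicase Ddx21 rose with log2 fold changes of 1.31 and 0.98. Nucleolin, encoded by Ncl, binds ribosomal RNA and its precursor. Its Foxo1TKO libraries, at 12203, 12520.4 and 11815 normalized counts, all lay above its Foxo1Ctrl libraries, at 7919, 10930.3 and 8005, but the difference did not pass the test (log2 fold change 0.44, adjusted p = 0.095). Tcof1, the treacle protein that recruits RNA polymerase I, had a log2 fold change of -0.19 with overlapping groups. The call of Npm1 was lost without Foxo1TKO library 2, Foxo1Ctrl library 1 or Foxo1Ctrl library 3, with log2 fold changes of 0.76, 0.67 and 0.66.

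The box C/D snoRNP proteins form the complex that methylates ribosomal RNA, and 3 of the 4 rose. Fbl, which encodes the methyltransferase fibrillarin, had 1090.3, 1084 and 954 normalized counts in Foxo1TKO libraries and 300.5, 277 and 433 in Foxo1Ctrl libraries (log2 fold change 1.63, SE 0.21, adjusted p = 0.0015). Nop56, a core scaffold of the complex and its most abundant transcript at 394 and 187 TPM, had 7688, 7769 and 6814 against 3532, 3309.5 and 4217 normalized counts (log2 fold change 1.01, SE 0.15, adjusted p = 0.0029). Its partner Nop58 rose by a log2 fold change of 1.20 (adjusted p = 0.0077), and in all 3 genes the groups were apart. Rrp9, the protein specific to the U3 snoRNP, had 604, 431 and 308 normalized counts against 316, 103 and 339, with overlap between the groups and Foxo1Ctrl library 2 far below the rest (log2 fold change 0.82, 95% interval -0.20 to 1.84, adjusted p = 0.22).

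The box H/ACA snoRNP proteins, which turn uridines of ribosomal RNA into pseudouridines, had the highest median among groups of more than 1 gene, at a log2 fold change of 1.47. All 3 listed genes rose. Gar1 (ENSMUSG00000028010, GRCm38 chr3:129824912-129831396, minus strand) had the largest estimate of the 40 genes in the fit of all libraries. It had 384, 409 and 399 normalized counts in Foxo1TKO libraries, which were close together, and 26.2, 74.3 and 152 in Foxo1Ctrl libraries, which spread widely (log2 fold change 2.21, SE 0.52, 95% interval 1.02 to 3.40, adjusted p = 0.018). Without Foxo1TKO library 2 its adjusted p was 0.062. The estimate moved with the Foxo1Ctrl library left out, and was 1.78 without library 1, below that of Rcl1 in the same fit (2.01), and 2.95 without library 3. Dkc1, the pseudouridine synthase dyskerin and the most abundant transcript of the group, had 4533, 6081 and 6416 normalized counts in Foxo1TKO libraries and 1891, 2997 and 2379 in Foxo1Ctrl libraries (log2 fold change 1.23, SE 0.22, adjusted p = 0.0056). Nhp2, a core RNA-binding protein, had a log2 fold change of 1.47 (adjusted p = 0.0023). Nop10, the remaining core protein, was in the wider list, where it rose too (0.94, adjusted p = 0.010).

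Small subunit maturation had the lowest median of the groups, at a log2 fold change of 0.42, and 4 of its 10 genes rose. Rcl1 (ENSMUSG00000024785, GRCm38 chr19:29101375-29143929, plus strand), which acts in cleavage of the precursor on the way to the small subunit RNA, had 1210.3, 1141 and 1184 normalized counts in Foxo1TKO libraries and 284, 239 and 335 in Foxo1Ctrl libraries. The Foxo1TKO libraries hardly differed, the gap to the controls was wide, and the adjusted p was the lowest of the 40 genes (log2 fold change 2.04, SE 0.18, adjusted p = 0.00027). Wdr43, of the subcomplex that binds the nascent precursor first and the most abundant of the group in TPM, had 4451, 5116 and 4580.4 against 3385, 3384 and 3622 normalized counts. The groups did not overlap, but the change was small and close to the threshold (log2 fold change 0.45, SE 0.13, adjusted p = 0.045). It kept its call in 6 of 11 other settings and, with single libraries dropped, in 1 of 6 fits, that without Foxo1Ctrl library 2.

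Of the other proteins of this early subcomplex, Heatr1 rose by a log2 fold change of 1.14 (adjusted p = 0.0029), while Utp4 and Utp15 stood at 0.37 (adjusted p = 0.092) and 0.25 (adjusted p = 0.26). Utp20, a large scaffold of the small subunit precursor, rose (1.08, adjusted p = 0.022), although not without Foxo1TKO library 2, Foxo1TKO library 3 or Foxo1Ctrl library 1. Its adjusted p was 0.054 with an offset for effective length and 0.053 with limma on the deposited table. The remaining genes did not pass the test: the assembly factors Nop14 (0.45, adjusted p = 0.081) and Noc4l (0.40), the RNA helicase Ddx10 (0.0021, 95% interval -0.36 to 0.36), and Rrp12 (-0.40), which acts in the export of subunits and had the lowest level of all 40 genes.

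Large subunit maturation was the largest group, and 9 of its 13 genes rose, 1 fell and 3 did not pass the test, with a median log2 fold change of 1.04. Grwd1 (ENSMUSG00000053801, GRCm38 chr7:45825223-45830944, minus strand), a chaperone of the ribosomal protein Rpl3, showed the largest estimate of the group. It had 804, 646 and 645 normalized counts in Foxo1TKO libraries and 261, 76.6 and 287 in Foxo1Ctrl libraries, of which library 2 was far below the others (log2 fold change 1.74, SE 0.43, adjusted p = 0.023). Its adjusted p was 0.051, 0.066 and 0.053 without Foxo1TKO library 1, 2 and 3. Gnl3, which encodes the GTPase nucleostemin, rose by a log2 fold change of 1.62 with a smaller error (SE 0.17, adjusted p = 0.00063) and kept its call with each library left out. Of the other transcripts that rose, Nop16 had a log2 fold change of 1.31, Rrs1, which helps to place the 5S particle, 1.23, Noc2l 1.07, Mrto4, which prepares the site of the ribosomal stalk, 1.04, Noc3l 1.02, and the RNA helicase Ddx18 0.80, with adjusted p-values from 0.0040 to 0.031. The calls of Rrs1 and Noc3l were lost when Foxo1TKO library 1, Foxo1TKO library 2 or Foxo1Ctrl library 1 was left out, and that of Rrs1 also without Foxo1TKO library 3 (adjusted p = 0.0501). Nop2, an RNA methyltransferase, and Nip7 did not pass the test, with log2 fold changes of 0.98 (adjusted p = 0.14) and 0.30 (adjusted p = 0.22).

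Wdr12 (ENSMUSG00000026019, GRCm38 chr1:60069785-60098645, minus strand) was the only gene of the 40 that fell. It had 1479, 1922 and 2141 normalized counts in Foxo1TKO libraries and 3628, 5411 and 3311 in Foxo1Ctrl libraries, which did not overlap (log2 fold change -1.16, SE 0.23, adjusted p = 0.0098). It passed the threshold in every alternative and without each of the 6 libraries, with log2 fold changes from -1.30 to -0.91. On the TPM scale it was the most abundant of the 13 listed large subunit factors over all libraries, with means of 61.5 in Foxo1TKO and 116 in Foxo1Ctrl. The exons of Wdr12 overlap those of Carf on the opposite strand, and Carf fell as well, from a mean of 1209 to 301 normalized counts (log2 fold change -2.00, adjusted p = 0.0029). The sources used here do not say whether reads were counted by strand, so reads from the stretch that both genes share cannot be told apart.

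Wdr12 protein works in the PeBoW complex with Pes1 and Bop1, which processes the precursor of the large subunit RNA. Of these partners, the Pes1 transcript rose and Bop1 did not pass the test. Pes1 had 2451, 2247 and 1915 normalized counts in Foxo1TKO libraries and 1358, 894 and 1422 in Foxo1Ctrl libraries (log2 fold change 0.85, SE 0.21, adjusted p = 0.022), a call that was lost without Foxo1TKO library 1, Foxo1TKO library 2 or Foxo1Ctrl library 1. Bop1 had 975, 458 and 407 against 327, 85.8 and 319.7 normalized counts, without overlap but with a large spread in both genotypes (log2 fold change 1.33, 95% interval 0.11 to 2.54, adjusted p = 0.11). It passed the threshold in 4 other settings, DESeq2 among them (adjusted p = 0.032). The ratio of Wdr12 to Pes1 in TPM was 0.689, 0.980 and 1.53 in Foxo1TKO libraries and 3.00, 6.85 and 2.34 in Foxo1Ctrl libraries, without overlap. For Wdr12 to Bop1 it was 1.49, 4.64 and 6.21 against 10.1, 63.5 and 8.59. Wdr12 and Pes1 lay apart in opposite directions in TPM, so the ratio of both could not overlap. Both ratios were formed after the values had been seen and were not tested.

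The genes that the list left out were examined through 121 further ribosome biogenesis genes. Of these 46 rose (38.0%, against 11.8% of all genes tested) and 1 fell, with a median log2 fold change of 0.53. These lists, too, were drawn up with earlier results known. The number that rose was 18 without Foxo1TKO library 2, 28 without Foxo1TKO library 3, 19 without Foxo1Ctrl library 1 and 29 without Foxo1Ctrl library 3. In the wider small subunit list 22 of 53 genes rose, led by Utp14b (2.11, adjusted p = 0.034), Utp18 (1.80, adjusted p = 0.0073) and Nol10 (1.38, adjusted p = 0.0083). This list also holds genes of other steps. Of these, Nop10, Shq1 and Rrp1b rose, and Naf1, Nufip1 and Rrp1 did not pass the test. In the wider large subunit list 20 of 51 rose, led by Ipo4, the importin that carries ribosomal proteins and histones (2.15, adjusted p = 0.0030), Rrp15 (1.60, adjusted p = 0.0012) and Ppan (1.49, adjusted p = 0.011). Utp14b was scarce, with 36.3, 34.2 and 46.1 against 7.15, 16.01 and 1.94 normalized counts, whereas Utp18 had 788, 1125 and 1296 against 176, 317 and 427, and both were apart between the genotypes. In the wider RNA polymerase I machinery 4 of 17 rose, led by Polr1e (0.77, adjusted p = 0.014), Polr2h (0.66, adjusted p = 0.022) and Polr2l (0.65, adjusted p = 0.037). The remaining gene that rose was Polr2e (0.52, adjusted p = 0.029). Polr2e, Polr2h and Polr2l encode subunits that are shared with the other nuclear polymerases. The gene that fell was Ttf1, which terminates transcription by RNA polymerase I (871, 845 and 694 against 1471, 1291 and 1173 normalized counts, log2 fold change -0.71, adjusted p = 0.018). The general factors Ubtf and Rrn3 had log2 fold changes of 0.06 and 0.08 and did not pass the test.

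**Figure D4:**
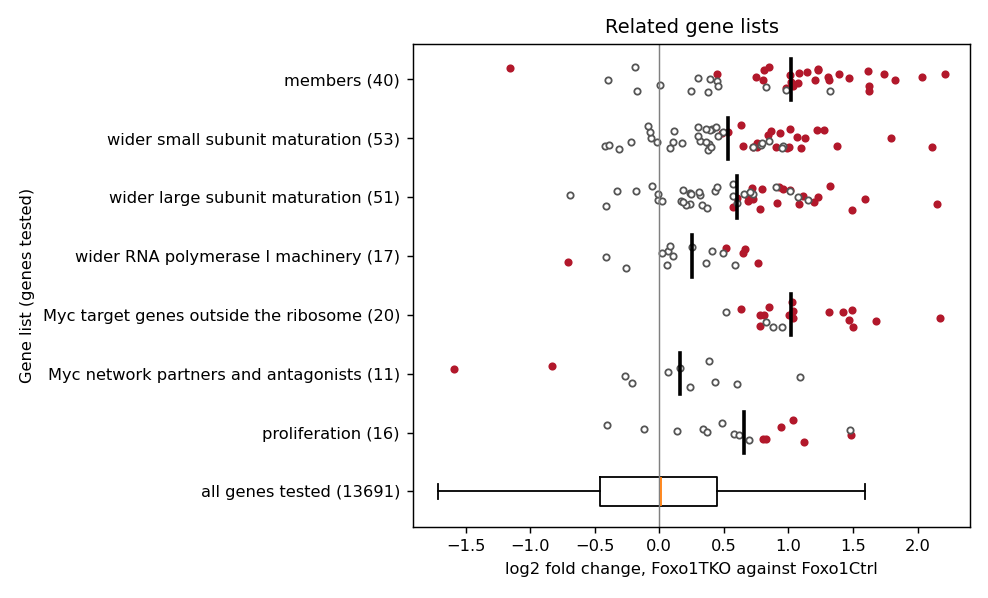
Log2 fold change, Foxo1TKO against Foxo1Ctrl, of single genes (points, filled red where the adjusted p is under 0.05) in the 40 genes, 3 wider lists, 2 Myc lists and the proliferation list, with black bars for medians; the box holds the middle 50% of all genes tested and its whiskers reach the 5% and 95% points. The medians are 1.02 for the 40 genes, 0.53, 0.60 and 0.26 for the wider lists, 1.02 for Myc targets, 0.16 for the Myc network and 0.66 for proliferation.

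Several of the genes contain genes of small nucleolar RNAs, the guides that the snoRNPs use. In the annotation, Nop56 holds 5 snoRNA genes on its own strand, Nop58 holds 4, Ncl, Gnl3 and Wdr43 hold 3 each, and Dkc1 holds 1, so that 6 of the 40 genes are hosts. Of these 19 snoRNA genes, 10 lie over annotated exons of the host (4 in Nop56, 3 in Gnl3, 2 in Ncl and 1 in Nop58), where reads of the 2 overlapping genes share sequence, and what that does to the counts was not tested. Of these hosts, Nop56, Nop58, Gnl3, Dkc1 and Wdr43 rose, and Ncl did not pass the test. In 15 of the 40 genes another gene lies over exons on the opposite strand, Wdr12, Bop1, Pes1, Rrp9 and Grwd1 among them. For 12 of the 40 genes RSEM gave a count that was not whole in at least 1 library, as it does where reads fit more than 1 place. They were Npm1, Ncl, Fbl, Nop56, Nop14, Wdr12, Pes1, Polr1b, Heatr1, Ddx18, Mrto4 and Noc2l.

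The GC content of transcripts moved with some of these values, and its part in the genotype difference was examined with an offset. Across all genes, the deviation of each library from its genotype's mean followed the GC content of the transcripts, upwards in Foxo1TKO library 1, Foxo1Ctrl library 1 and Foxo1Ctrl library 3 (Spearman's rho of 0.377, 0.342 and 0.264 across genes, which are not independent) and downwards in the others, most in Foxo1Ctrl library 2 (-0.398). Over the 40 genes, whose GC content ranged from 40.1% to 59.4% with a median of 51.9%, the difference between Foxo1Ctrl library 2 and the other Foxo1Ctrl libraries had a rho of -0.423 with GC content, and that between Foxo1TKO library 1 and the other Foxo1TKO libraries 0.428. The lowest values of Foxo1Ctrl library 2 on the log2 scale were at Bop1 (-1.90), Grwd1 (-1.82), Rrp9 (-1.66) and Nop2 (-1.41). With an offset for GC content, which was added after these values had been seen, 28 of the 40 genes rose and 1 fell, and Myc had a log2 fold change of 1.74. Over all 13691 genes tested the offset gave 3737 calls, 52.5% of them higher. The fit without it gave 3308, 48.8% of them higher.

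**Figure D5:**
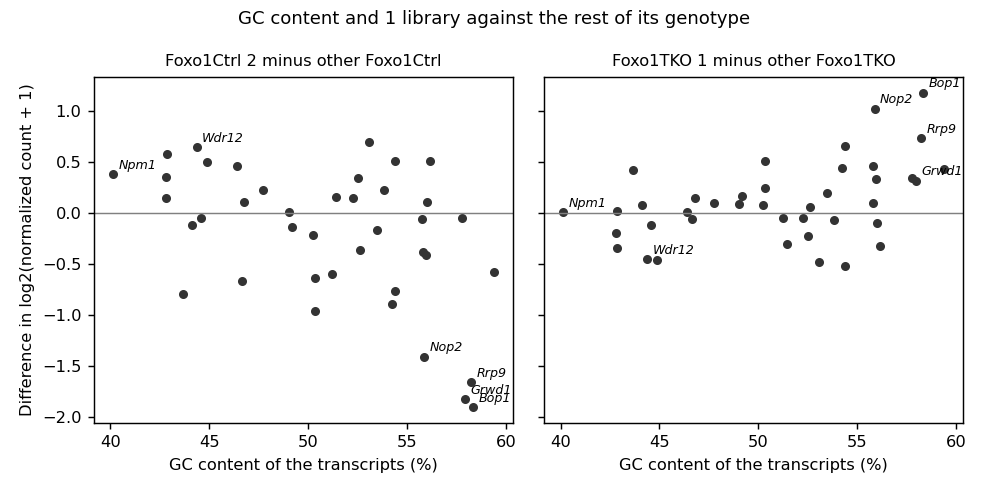
GC content of the transcripts (%, x axis) of the 40 genes against the difference, in log2(normalized count + 1), of Foxo1Ctrl library 2 from the mean of the other Foxo1Ctrl libraries (left) and of Foxo1TKO library 1 from the mean of the other Foxo1TKO libraries (right). Points fall to the right in the left panel, down to -1.90 for Bop1, and rise to the right in the right panel.

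The genes whose call did not depend on any setting or library were 18 of the 27 that passed the test: Myc, Fbl, Nop56, Nop58, Nop16, Dkc1, Nhp2, Wdr12, Polr1b, Heatr1, Nolc1, Ddx21, Ddx18, Gnl3, Mybbp1a, Rcl1, Mrto4 and Noc2l. The remaining 9 lost their call in at least 1 alternative.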

How the data were processed

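RNA-seq of 6 libraries, 3 per genotype, was analysed. The authors aligned reads with STAR 2.7.6a to GRCm38 and counted them with RSEM 1.3.1. The deposited files hold expected counts, TPM and effective lengths per gene and library, and a series table whose values are a signal that the authors normalized with DESeq2. The expected counts were rounded to whole numbers and tested with edgeR 4.0.16 (quasi-likelihood, TMM, prior count 1, Benjamini-Hochberg adjustment, genotype as sole term) in R 4.3.3. Of 55487 genes, the 13691 that reached 10 counts in 3 or more libraries were tested. Depth was 14783890 to 19675447 expected counts per library. Alternatives were DESeq2 1.42.0, limma 3.58.1 (voom, and trend on the deposited table with a pseudocount of 1), other scalings, an offset for effective length, other filters, the replicate number as a block, each library left out, and an offset for GC content, chosen after seeing the data.

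The 40 genes and all lists were chosen with earlier results of these data known. Values per library are given for Myc and, in each role group, for the gene with the largest absolute log2 fold change and that with the highest mean TPM. In the wider and Myc lists the 3 largest changes past the threshold are named in each direction, and in the proliferation list the choice was made after the values were seen, as it was for Pes1, Bop1 and the other genes given per library. The scripts were tested on simulated data. Figures were drawn with matplotlib 3.10.9.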

Additional observations from a re-analysis of the deposited data

How the results depend on the processing

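Myc stayed higher and Wdr12 lower, both past the threshold, under every alternative. Of the 27 genes that passed the test, 24 did so in every alternative other than leaving out a library, and 18 did so also without each library. Leaving out 1 library at a time gave 1590 to 3431 genes called of all tested (3308 with all 6), 17 to 27 of the 40 genes higher, 18 to 48 of the wider list higher and 0 to 3 lower, and a median log2 fold change of the 40 genes of 0.94 to 1.11. All of these counts of higher genes were lowest without Foxo1TKO library 2, and the cause was not tested. Of the wider list, 3 genes were lower with DESeq2, 0 with library totals only, 2 without the filter on low counts and 2 with the GC content offset. With library totals only, the median of the 40 genes was 1.12, that of all genes was 0.124, and 59.4% of all calls were higher, against 48.8%. The log2 fold change of Ddx10 reversed to -0.011 with upper quartile scaling and ranged from -0.081 to 0.133 when single libraries were dropped, and that of Polr1a, which ranged from -0.42 to 0.0065, reversed without Foxo1Ctrl library 1. Neither gene passed the test in any of these.

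Same-numbered libraries had correlations of 0.432, 0.198 and -0.109 in their deviations from the genotype means, and Foxo1TKO library 3 correlated best with Foxo1Ctrl library 2 (0.301). The numbers were not taken as pairs in the main fit. These correlations cannot decide if the libraries were paired, because the deviations also followed GC content. The study compared its cytometry of such cultures in pairs by experiment, and does not say if the RNA-seq libraries were paired. With the replicate number as a block, 3428 genes were called, 26 of the 40 genes were higher and 1 was lower, the wider list had 46 higher and 1 lower, the median of the 40 genes was 1.04 and Myc stood at 1.84. Among the 40 genes the block added the call of Bop1 (adjusted p = 0.036) and removed that of Wdr43 (0.071). With 3 libraries per genotype, changes as small as those of Utp15 or Nip7 could not be told from 0.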
